A study of Mus musculus with 2 samples.

Results

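Calcium handling genes and calmodulins were followed through long-read RNA sequencing of C2C12 cells, a mouse myoblast line that the labels trace to thigh muscle of C3H mice after a crush injury. The 8 genes were taken by symbol from the deposited transcript tables: the calmodulin genes Calm2 and Calm3, the sarcoplasmic reticulum pump genes Atp2a1 and Atp2a2, the release channel gene Ryr1, the luminal calcium buffer gene Casq2, the junction gene Jph2 and the store sensor gene Stim1. They are 8 of 14198 annotated genes with reads. The study holds 1 group, total RNA of C2C12 cells, in 2 libraries given as biological replicates 1 and 2. The labels name no treatment and do not say whether the cells were growing as myoblasts or had been led to form myotubes. Since both libraries come from a single line, p-values measure only how far these 2 libraries differ.

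In skeletal muscle, calcium is stored in the sarcoplasmic reticulum and let out through the ryanodine receptor when the surface membrane is excited. Pumps of the SERCA family carry it back, calsequestrin holds it inside the store, junctophilins tie the store to the surface membrane, and STIM proteins sense the filling of the store and open entry from outside. Calmodulin is the cytosolic sensor that passes calcium on to kinases, phosphatases and channels, and several genes of the genome encode the same calmodulin protein. The pump genes are known for a change of splice form as muscle matures: SERCA1b is the form of newborn muscle and SERCA1a that of adult fast fibres, while SERCA2a is the muscle form of Atp2a2 and SERCA2b the form found in most cells.

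The replicates held 791850 and 735077 reads, of which 773408 and 722647 lay on annotated genes. Levels are given as CPM, the reads of a gene scaled to 1000000 annotated-gene reads, with mean ± SD over n = 2. A count of 3 reads, the most that a gene without reads could have had, makes 3.88 CPM in replicate 1 and 4.15 CPM in replicate 2, for counting error only. All 6 myoblast markers examined had reads in both libraries, among them Myod1 at 165 ± 15.5 CPM (n = 2) and Myog, a gene of early differentiation, at 597 ± 43.8 CPM (n = 2). The cardiomyocyte markers Myh6, Nppa, Nppb and Tbx5 had 0 reads in both libraries and the other 2 of that list had 1 to 4 reads. Endothelial, blood and neural markers had 0 to 3 reads each. Of the smooth muscle markers Myh11 had 0 reads, and Cnn1 and Smtn had 20 to 50. Of the fibroblast markers Lum had 0 reads, Pdgfra 1 in each library, and Dcn 30 and 23.

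The sequences below show what separates the transcripts compared here. They are read from the GENCODE M21 transcripts on mm10, 5′ to 3′, and all of these genes lie on the minus strand. The first pair gives the opening 120 coding bases of the calmodulin genes, with the bases that differ between them in capitals.
Calm2: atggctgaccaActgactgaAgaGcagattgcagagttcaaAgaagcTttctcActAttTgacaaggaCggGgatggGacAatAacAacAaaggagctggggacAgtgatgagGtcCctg
Calm3: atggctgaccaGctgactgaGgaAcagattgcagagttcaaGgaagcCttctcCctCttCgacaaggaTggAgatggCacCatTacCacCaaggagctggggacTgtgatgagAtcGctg
The shown stretches differ at 18 bases. Over the whole coding sequence of 450 bases, Calm2 and Calm3 differ at 78 bases, of which 74 lie at the third codon position and 4 at the first, and the 149 residues they encode are identical. The RNAs can therefore be told apart by sequence although their proteins cannot.

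The next set gives the coding ends of the pump forms, with the last 30 coding bases that the forms of a gene share in lower case and the bases that only that form has, up to and including the stop codon, in capitals.
SERCA1a: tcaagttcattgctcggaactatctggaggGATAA
SERCA1b: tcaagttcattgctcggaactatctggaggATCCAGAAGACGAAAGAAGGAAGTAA
SERCA2a: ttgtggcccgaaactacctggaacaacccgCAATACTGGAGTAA
SERCA2b: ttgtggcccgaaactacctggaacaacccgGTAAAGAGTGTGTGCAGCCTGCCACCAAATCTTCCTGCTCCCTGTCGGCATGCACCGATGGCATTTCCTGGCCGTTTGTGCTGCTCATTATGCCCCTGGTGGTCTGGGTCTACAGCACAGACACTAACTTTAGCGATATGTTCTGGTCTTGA
SERCA1a ends 5 bases after the shared part, because its exon 22 of 42 bases (chr7:126446545-126446586) carries a stop codon. SERCA1b lacks that exon and goes on for 26 bases into the last exon. SERCA2a has 14 bases of its own, and SERCA2b has 152, which encode the longer tail that only this form carries.

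Calm2 (ENSMUSG00000036438.13, chr17:87433412-87446935) was by far the most abundant of the 8 genes, and its level was not called different between the libraries. It had 972 reads (1257 CPM) in replicate 1 and 941 reads (1302 CPM) in replicate 2, a mean of 1279 ± 32.1 CPM (n = 2), which placed it at rank 88 among all annotated genes with reads. It made up 83.1% and 88.1% of the reads of the 8 genes. The log2 ratio of replicate 2 over replicate 1 was 0.05 with a counting SE of 0.07 (two-sided exact binomial test, Benjamini-Hochberg adjusted p = 0.837). It was -0.0467 with DESeq2 size factors, which were 1 for both libraries and so left the counts unscaled, and -0.00801 over complete models, neither of them called.

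Calm3 (ENSMUSG00000019370.10, chr7:16915379-16924114), which encodes the same protein, had 97 reads (125 CPM) and 63 reads (87.2 CPM), a mean of 106 ± 27.0 CPM (n = 2). The log2 ratio was -0.52 with an SE of 0.23 (exact binomial, adjusted p = 0.254), so the libraries were not told apart by the test. Of these reads, 31 in replicate 1 and 12 in replicate 2 belonged to the genomic class, here single-exon models that match no annotated transcript. They lay within the last exon of Calm3 (chr7:16915379-16916334) and cross no junction, so they do not show whether the RNA was spliced. Over all annotated genes the genomic class took 5.38% of reads in replicate 1 and 3.23% in replicate 2, and the part of this class in the Calm3 difference was not tested.

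**Figure D1:**
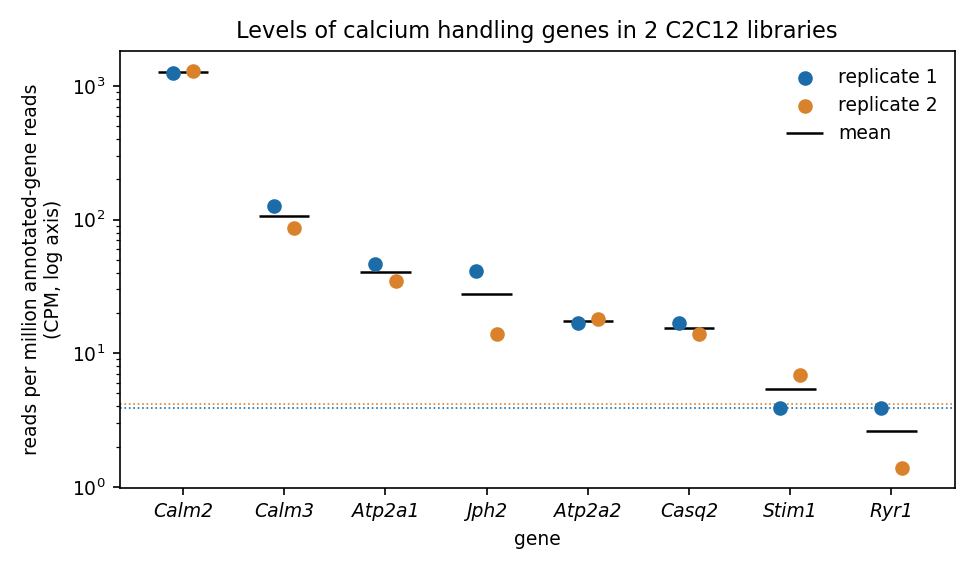
Level of each gene in CPM (log axis) in replicate 1 (blue) and replicate 2 (orange), with the mean as a black bar and the level of 3 reads in each library as dotted lines. Calm2 lies at 1257 and 1302 CPM, more than all others together, and Ryr1 and Stim1 lie near the 3-read lines.

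The SERCA1 gene Atp2a1 (ENSMUSG00000030730.12, chr7:126445858-126463108), the pump of fast skeletal fibres, had 36 reads (46.5 CPM) and 25 reads (34.6 CPM), a mean of 40.6 ± 8.45 CPM (n = 2). The SERCA2 gene Atp2a2 (ENSMUSG00000029467.15, chr5:122453513-122502225) had 13 reads in each library, 16.8 and 17.99 CPM, a mean of 17.4 ± 0.835 CPM (n = 2). Neither was called different between the libraries: the log2 ratio was -0.42 with an SE of 0.37 for Atp2a1 (exact binomial, adjusted p = 0.741) and 0.10 with an SE of 0.57 for Atp2a2 (exact binomial, adjusted p = 1). The Atp2a1 levels lay above the Atp2a2 levels in both libraries.

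Casq2, Ryr1 and Stim1 had few reads. Casq2 (ENSMUSG00000027861.13, chr3:102086415-102146514), the calsequestrin of heart and slow muscle, had 13 and 10 reads, 15.3 ± 2.10 CPM (n = 2). Ryr1 (ENSMUSG00000030592.18, chr7:29003344-29125179), the release channel of skeletal muscle, had 3 reads and 1 read, 2.63 ± 1.76 CPM (n = 2). Stim1 (ENSMUSG00000030987.5, chr7:102267806-102437319) had 3 and 5 reads, 5.40 ± 2.15 CPM (n = 2). The Casq2 log2 ratio was -0.26 with an SE of 0.60 (exact binomial, adjusted p = 0.94), and Ryr1 and Stim1 had fewer than the 10 summed reads the test required. In bulk RNA, fewer cells with a transcript and less of it per cell cannot be told apart.

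Jph2 (ENSMUSG00000017817.11, chr2:163336242-163397993), the junctophilin that ties the store to the surface membrane, was the only gene of the 8 called different between the libraries. It had 32 reads (41.4 CPM) in replicate 1 and 10 reads (13.8 CPM) in replicate 2, a mean of 27.6 ± 19.5 CPM (n = 2). The log2 ratio was -1.53 with an SE of 0.52 (exact binomial, adjusted p = 0.0446), and the adjusted p was 0.0705 when genes with as little as 1 read were tested too. Of the 8 genes 6 could be tested and 1 was called, against 3.98% of the 8940 genes tested, 2.6% of which were called higher in replicate 1. The 6 tested genes, of which only Jph2 was called, had a median log2 ratio of -0.34, and all tested genes had a median of 0.06. The share of all calls that were higher in replicate 1 was 65.2%, 74.7% with TMM scaling and 88.2% with DESeq2 size factors.

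**Figure D2:**
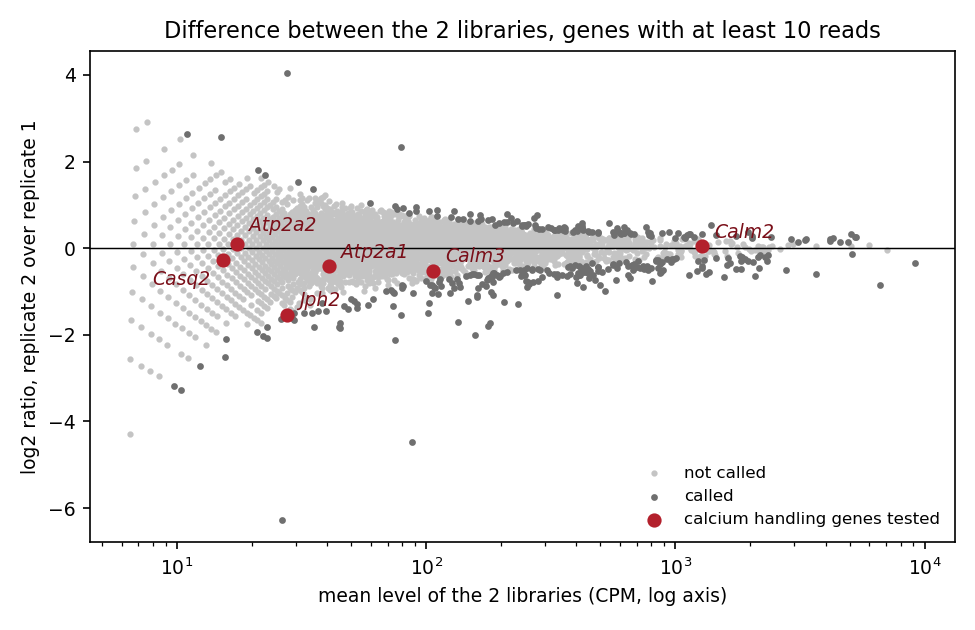
Log2 ratio of replicate 2 over replicate 1 against the mean level (CPM, log axis) for every gene with at least 10 summed reads, with called genes in dark grey and the 6 tested calcium handling genes in red. Jph2 at -1.53 lies on the edge of the cloud of genes of its level, and the other 5 lie within it.

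Nearly all Jph2 reads lay on single-exon models, which cross no junction and so do not show whether the RNA was spliced. The genomic class held 30 of 32 reads in replicate 1 and 10 of 10 in replicate 2. Of these, 29 and 9 lay at the 3′ end of the last exon (chr2:163336242-163336851 in replicate 1 and chr2:163336242-163336637 in replicate 2). Complete models, which are those of an annotated transcript or of the unannotated classes NIC (known splice sites in a new combination) and NNC (at least 1 new splice site), held 1 read of Jph2 in replicate 1 and 0 in replicate 2. Among annotated genes with at least 10 reads in a library, the genomic class held over 80% of the reads in 2.51% of genes in replicate 1 and 1.46% in replicate 2. Without that class, and scaled to the reads left, Jph2 had a mean of 1.37 ± 1.93 CPM (n = 2). The reads outside that class were 2 and 0. The called difference thus lay in the reads of the genomic class. Over all annotated genes this class took 5.38% of reads in replicate 1 and 3.23% in replicate 2. The part of that difference in the Jph2 call was not tested. Among the myoblast markers, Myf5 was called higher in replicate 1 (215 and 60 reads) and Des, the muscle intermediate filament gene, higher in replicate 2 (881 and 1187 reads). The part of these marker differences in the Jph2 result was not tested.

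Per kilobase of the longest annotated coding transcript, the order of the mean levels was Calm2 at 1062 ± 26.6 CPM per kb, Calm3 at 46.4 ± 11.8, Atp2a1 at 11.7 ± 2.43, Jph2 at 6.56 ± 4.62, Casq2 at 5.995 ± 0.822, Atp2a2 at 3.88 ± 0.186, Stim1 at 1.24 ± 0.493 and Ryr1 at 0.171 ± 0.115 (SD, n = 2 each). The values of Jph2, 9.83 and 3.29 CPM per kb, enclosed those of Casq2 and Atp2a2, so the order of these 3 genes is not fixed by the spread. The other neighbours in the order did not overlap, but for some of them this came only from the division by length. In CPM, Stim1 and Ryr1 both had 3.88 in replicate 1. Jph2 in replicate 1 (41.4 CPM) exceeded Atp2a1 in replicate 2 (34.6 CPM). A long read counts 1 cDNA whatever its length, so the division by length lowers long transcripts such as Ryr1 more than the CPM does. By CPM, Atp2a2 (17.4) stood above Casq2 (15.3), the reverse of the order per kilobase. Jph2 was divided by 4211 bases although 30 of 32 and 10 of 10 of its reads were on single-exon models, so its place is unsure.

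The genes differed in how complete their reads were. Complete models held 921 of 972 and 900 of 941 reads of Calm2, 94.8% and 95.6%. They held 64 of 97 and 48 of 63 reads of Calm3, 25 of 36 and 17 of 25 of Atp2a1, and 9 of 13 and 8 of 10 of Casq2. For Atp2a2 it was 1 of 13 in each library, and the rest were mostly models that match the 3′ part of an annotated transcript. Ryr1 had 0 complete reads: its longest models were 1102 and 2081 bases, of an annotated transcript of 15358 bases. All 3 Stim1 reads of replicate 1 and 2 of 5 of replicate 2 were Stim1-201, while Stim1-202 had 0 reads. Over all annotated genes complete models held 84.0% and 88.3% of reads, so Calm2 lay above that share and Calm3, Atp2a1, Atp2a2, Ryr1, Casq2 and Jph2 lay below it in both libraries.

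Calm2 was read almost wholly as 1 transcript. Calm2-201 took 888 of 921 complete reads in replicate 1 (96.4%) and 867 of 900 in replicate 2 (96.3%). Fisher's exact test of this transcript against all other complete models gave an adjusted p of 1, and over all 4011 genes tested the isoform test called 0.0997%. Calm2-204, which lacks the 31-base exon 2 and ends earlier, had 5 and 7 reads. A structure of 6 exons whose last intron ends 2 bases away from the annotated site (chr17:87434053-87435076) had 14 and 4 reads, and the authors' classes called it NNC in replicate 1 and NIC in replicate 2. Calm3-201 took 60 of 64 and 44 of 48 complete reads (93.8% and 91.7%, Fisher's exact test, adjusted p = 1).

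Calmodulin genes are known to make mRNAs with short and long 3′ untranslated regions, so the 3′ ends of the models were compared. Calm2 ended at chr17:87433412 in 916 of 921 and 893 of 900 complete reads (99.5% and 99.2%), which leaves 615 bases after the stop codon. The nearer end at chr17:87433665, with 362 bases after the stop codon, had 5 and 7 reads, all of them Calm2-204. Calm3 ended at chr7:16915379 in 64 of 64 and 46 of 48 reads, with 1569 bases after the stop codon, and the other 2 reads ended at chr7:16916698. The same test of the leading end against all others gave an adjusted p of 1 for Calm2 and for Calm3, with 1.09% of the 2932 genes tested called. These are ends of models and not of single reads: 78.3% and 78.4% of all unannotated spliced models lay exactly on an annotated end, so ends that vary by a few bases would not be seen.

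The last 30 bases before each of these ends are shown to compare the annotated ends, with the hexamer AATAAA, the commonest signal for cleavage and polyadenylation, in capitals.
Calm2-201: ttccAATAAAaaaaattacaatttacccaa
Calm2-204: atgttgttgttgaagtgtggagctgtaact
Calm3-201: aatgttttccAATAAAatacagtgactacc
The windows of Calm2-201 (chr17:87433412-87433441) and Calm3-201 (chr7:16915379-16915408) hold AATAAA. The window of the rarely assigned end of Calm2-204 (chr17:87433665-87433694) holds neither AATAAA nor ATTAAA. Of 58797 annotated protein-coding transcripts, 35.5% hold AATAAA and 9.74% ATTAAA in their last 30 bases on the transcript's strand, and no match says only that these letters are not in the window.

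Both Atp2a1 forms were read. Among complete reads that span the deciding junctions, replicate 1 had 11 SERCA1a and 11 SERCA1b reads, a SERCA1a share of 50% with a Wilson 95% interval of 30.7 to 69.3%. Replicate 2 had 13 SERCA1a and 4 SERCA1b reads, a share of 76.5% with an interval of 52.7 to 90.4%. With incomplete models counted too, SERCA1a had 15 of 28 reads (53.6%, 35.8 to 70.5%) and 19 of 24 reads (79.2%, 59.5 to 90.8%). The intervals of the libraries overlap, and that of replicate 1 reaches to either side of equal shares. The most used Atp2a1 structure had 10 of 25 and 12 of 17 complete reads (40% and 70.6%, Fisher's exact test p = 0.0659, adjusted p = 1, with a minimum of 10 reads in each library). It was below the minimum of 20 reads used for the other genes. Atp2a1 ended at the annotated chr7:126445858 in 23 of 25 and 17 of 17 complete reads, and the other 2 reads ended at chr7:126456377.

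Atp2a2 was read mostly as SERCA2b, the form of most cells. The 1 complete read of each library was SERCA2b. With incomplete models, replicate 1 had 0 SERCA2a and 8 SERCA2b reads. The Wilson interval of its SERCA2a share reached 32.4%, and the rougher bound of 3 counts of 8 is 37.5%. Replicate 2 had 2 SERCA2a and 9 SERCA2b reads, a SERCA2a share of 18.2% with a Wilson interval of 5.14 to 47.7%. A further 3 reads of replicate 1 were single exons within the last exon of SERCA2a (chr5:122453514-122454304), which show no junction and were not counted. Also uncounted for that reason were single-exon reads at the end of SERCA2b, 2 in replicate 1 and 1 in replicate 2, and 1 read of replicate 2 that ended where SERCA2a ends and reached beyond its last exon (chr5:122453514-122455893). At this depth the libraries could not be told apart in their SERCA2a share.

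**Figure D3:**
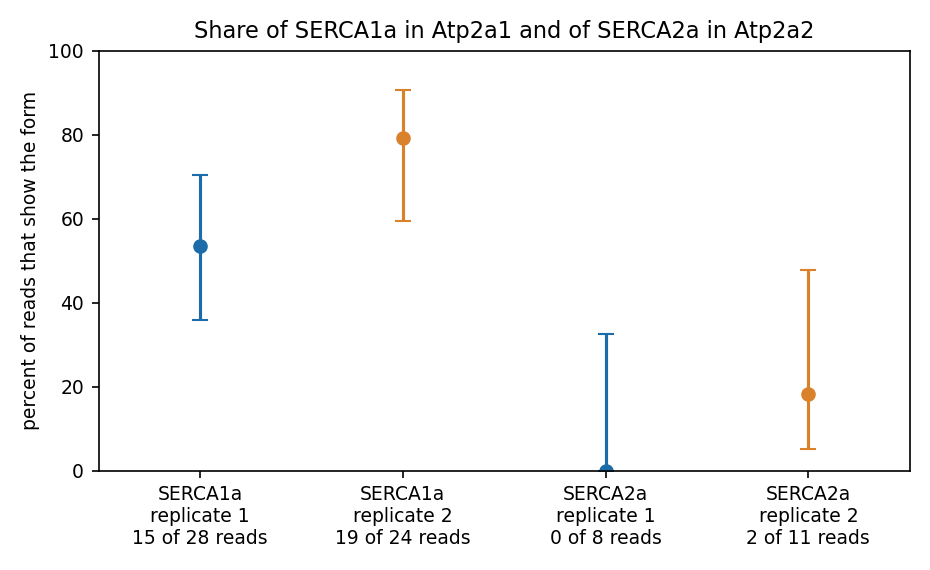
Percent of reads with the deciding junctions that show SERCA1a (Atp2a1) or SERCA2a (Atp2a2), all models counted, in replicate 1 (blue) and replicate 2 (orange), with Wilson 95% intervals. SERCA1a had 53.6% and 79.2% of the Atp2a1 reads and SERCA2a had 0 of 8 and 2 of 11 of the Atp2a2 reads.

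None of the Atp2a1 reads of either library was assigned to an annotated transcript. The models of reads that reach the 5′ end lacked a very short exon there. Atp2a1-201 has 23 exons, of which exon 2 has 18 bases (chr7:126462500-126462517). Atp2a2 has an exon 2 of the same length (chr5:122500931-122500948). The pair is shown with 12 bases of the neighbouring exons on each side and exon 2 in capitals.
Atp2a1 exon 2: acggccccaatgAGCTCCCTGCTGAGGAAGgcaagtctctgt
Atp2a2 exon 2: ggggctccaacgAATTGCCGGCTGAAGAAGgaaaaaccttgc
The Atp2a1 exon was held by 0 of 28 reads that span it in replicate 1 and 0 of 18 in replicate 2, which allows shares of up to 10.7% and 16.7% (3 counts). In the models of 24 and 16 of these reads, exon 1 was 26 bases longer than annotated. It was joined to exon 3 by an unannotated junction (chr7:126462187-126462779). By their coordinates these models hold 8 bases more than the annotated transcript, which is not a multiple of 3. The sequence of the reads was not examined, so whether the RNA holds these bases or exon 2 itself was not tested. Atp2a2 had 1 spanning read in each library, of which 0 and 1 held the exon.

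The same junction stood in the leading Atp2a1 structures: a structure of 22 exons that ends as SERCA1a had 10 and 12 reads, and a structure of 21 exons that ends as SERCA1b had 10 and 4. The authors' classes named the first NNC in replicate 1 and NIC in replicate 2, and the other the reverse, so the class of a structure depended on the library. In all other genes, internal exons of 11 to 20 bases that every annotated transcript across them includes were held by 44.2% and 41.7% of spanning reads (54 exons). The 7 such exons of exactly 18 bases were held by 82.1% of 28 and 58.1% of 31 spanning reads. The share was 91.6% and 90.7% at 21 to 30 bases and 98.1% and 97.8% at 31 to 40 bases. The 31-base exon 2 of the calmodulin genes was held by 912 of 924 and 887 of 899 reads of Calm2 and by 63 of 64 and 46 of 48 reads of Calm3. The part of exon length in the missing Atp2a1 exon was not tested.

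**Figure D4:**
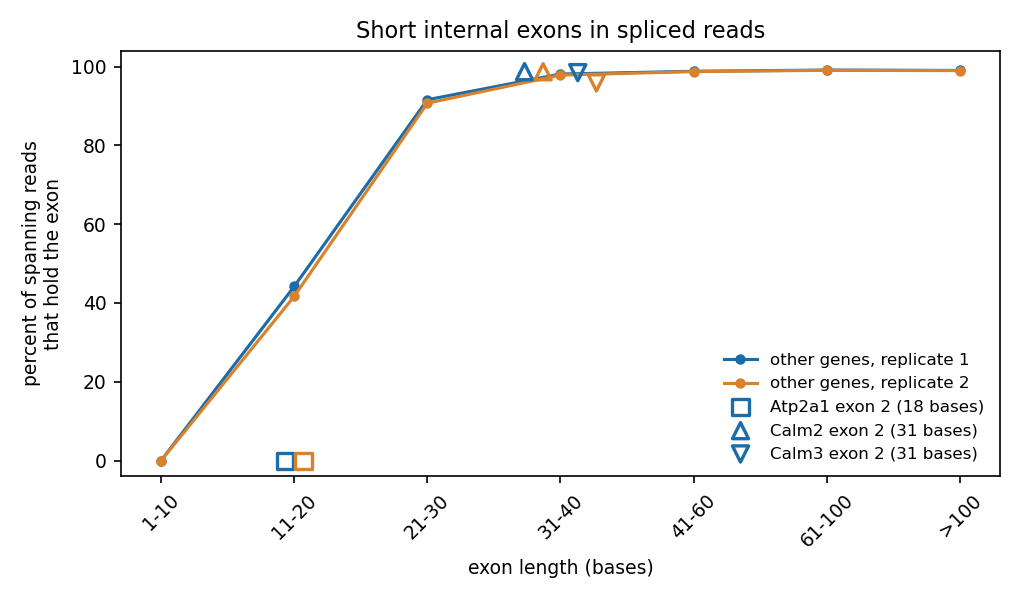
Percent of spanning spliced reads that hold an internal exon, by exon length in bases, over all other genes (lines) and for exon 2 of Atp2a1, Calm2 and Calm3 (open symbols), in replicate 1 (blue) and replicate 2 (orange). Atp2a1 exon 2 lies at 0% in both libraries, and the calmodulin exons lie between 95.8% and 98.7%.

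Casq2 showed reads from upstream of its annotated start. Casq2-201 took 8 of 9 and 6 of 8 complete reads. The remaining 1 and 2 reads began in unannotated first exons, 4286 to 4715 bases upstream of the gene's annotated start and were joined to the annotated exon 2 at chr3:102110240. The junction from chr3:102082348 was seen in 1 read of each library, and that from chr3:102081925 in 1 read of replicate 2. These counts are at or under 3 reads.

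Other genes could share reads with these. Rabep2, which overlaps Atp2a1 on the opposite strand, had 3 reads in each library. Gm43359, on the same strand as Atp2a2 and overlapping it, had 1 read in each library, and Gm43361 on the opposite strand had 0 and 1. Unannotated models on the opposite strand of Calm2 had 3 reads in replicate 1 and 0 in replicate 2, and the other 7 genes had 0 such reads.

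Of 83 further genes of calcium handling in 6 lists, 80 are described here: 57 had reads in both libraries, 8 in a single library and 15 in neither. Of the 47 that could be tested, 3 were called, all higher in replicate 1, beside 3.98% of all tested genes called and 2.6% called higher in replicate 1. An unadjusted p under 0.05 was reached by 8 of these 47 and by 1246 of all 8940 tested genes. Among 20 release and junction genes, 11 were tested and 0 called by the exact binomial test, with 2 at an unadjusted p under 0.05. The most abundant were Fkbp1a, a small protein bound to ryanodine receptors, at 812 ± 74.9 CPM, the calcium channel subunit gene Cacng1 at 177 ± 2.80 CPM and Jsrp1, a protein of the junctional face membrane, at 57.7 ± 20.9 CPM (n = 2 each). The surface calcium channel gene Cacna1s, which opens Ryr1 in muscle, and the heart receptor gene Ryr2 had 0 reads. Among 12 matched genes of pumps, pump regulators and exchangers, 6 had no reads, and of the 4 tested by the exact binomial test 0 were called and 0 had an unadjusted p under 0.05. The highest were the surface pump gene Atp2b1 at 43.9 ± 7.34 CPM, the Golgi pump gene Atp2c1 at 26.3 ± 11.7 CPM and Mrln, a peptide that inhibits SERCA in muscle, at 16.1 ± 0.771 CPM (n = 2 each). The SERCA inhibitors Sln and Pln were among those with 0 reads.

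All 11 genes of the calcium binding list had reads, 9 of them in both libraries. The exact binomial test was made for 8 and called 0, with 1 at an unadjusted p under 0.05. The highest were the chaperone gene Calr at 566 ± 29.97 CPM, Rcn1 at 351 ± 18.7 CPM and Calu at 265 ± 7.04 CPM (n = 2 each), all of them proteins of the endoplasmic reticulum lumen. Casq1, the calsequestrin of fast muscle, had 1 read in each library, fewer than Casq2 with 13 and 10. In the store-operated entry list, 5 of 6 genes had reads and were tested. Saraf, a regulator of STIM1, was the highest at 170 ± 27.1 CPM, the channel gene Orai3 had 28.98 ± 9.90 CPM, and the sensor gene Stim2 had 32.2 ± 22.1 CPM (n = 2 each). An unadjusted p under 0.05 was reached by 1 of the 5. Stim2 was called: it had 37 and 12 reads, a log2 ratio of -1.49 (exact binomial, adjusted p = 0.0263). Stim2 reads exceeded those of Stim1, 3 and 5, in both libraries.

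The 8 genes of mitochondrial calcium handling described here had reads in both libraries and were tested, with 3 at an unadjusted p under 0.05. Smdt1, a subunit of the mitochondrial uniporter, was the highest of these at 245 ± 72.4 CPM and was called, with 229 and 140 reads and a log2 ratio of -0.61 (exact binomial, adjusted p = 0.00376). Micu2, which gates the uniporter, had 159 ± 29.4 CPM, and Letm1, a protein of the inner mitochondrial membrane, had 103 ± 32.4 CPM (n = 2 each). Of 23 calmodulin effectors 11 were tested, with 1 at an unadjusted p under 0.05, and the kinase gene Camk1 had 158 ± 11.4 CPM, Camk2g 103 ± 20.1 CPM and the scaffold gene Iqgap1 59.0 ± 8.50 CPM (n = 2 each). Ppp3ca, a catalytic subunit of the phosphatase calcineurin, was called with 42 and 16 reads and a log2 ratio of -1.27 (exact binomial, adjusted p = 0.0408). It was not called over complete models, with 17 and 8 reads and a log2 ratio of -1.02 (adjusted p = 0.5), nor at the same ratio of -1.27 when genes with as little as 1 read were tested (adjusted p = 0.0647). The kinase gene Camk4 had 0 reads.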

How the data were processed

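The authors deposited, for each library, raw read counts per transcript model without normalisation, per the file headers, and the mm10 coordinates of the models, annotated against GENCODE M21. TALON stands as the source of unannotated models, per the file headers; the aligner, with its filters, is not given in the sources used here. Gene counts were sums over a gene's models, and CPM were taken over annotated-gene reads. Replicate 2 was tested against replicate 1 by a two-sided exact binomial test given the library totals (at least 10 reads summed), with an offset of 0.5 reads in log2 ratios. The most used transcript and 3′ end (ends within 50 bases joined) were tested by Fisher's exact test in genes with at least 20 complete reads in each library. All used Benjamini-Hochberg adjustment over every gene tested, at 0.05. Counting used scipy 1.17.1 and the tests were tried on simulated data; scaling factors came from edgeR 4.0.16 and DESeq2 1.42.0. Wilson 95% intervals, floors of 3 reads and p-values cover counting error only.

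The genes and lists were chosen with earlier results of these data known. Named were the 8 genes and, of each list, the 3 members with the highest mean CPM and those called. Cacna1s, Ryr2, Sln, Pln, Casq1 and Camk4 were named after their values were seen, as were the marker genes. Of the 83 listed genes, 2 are not reported here, and the rule was applied without them, and 1 symbol, Strit1, did not match the annotation. Alternatives covered scaling, read minimums, model classes, the window for ends and leaving out each replicate.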

Additional observations from a re-analysis of the deposited data

How the results depend on the processing

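No paired analysis was possible because the study holds 1 group of 2 libraries. Of 100 values recomputed under another setting, 84 kept their direction and call or, for levels and shares, moved by no more than 1 SD of the 2 libraries, and for counts by less than 1.5 times. With 2 libraries, leaving out either one always moves a mean by no more than that SD. Those values were therefore counted as kept by construction and say nothing about stability. That SD is wide for some. With each replicate left out in turn, Jph2 ran from 13.8 to 41.4 CPM and Ryr1 from 1.38 to 3.88 CPM. The SERCA1a share ran from 50% to 76.5%. Over complete models the mean level moved to 1414 CPM for Calm2, 1.55 CPM for Atp2a2, 0 CPM for Ryr1, 13.2 CPM for Casq2 and 0.77 CPM for Jph2. Without the genomic class it moved to 1321 CPM for Calm2, 15.4 CPM for Atp2a2 and 1.37 CPM for Jph2. The Calm2 log2 ratio of 0.05 turned to -0.0467 with DESeq2 size factors, both of them 1, and to -0.00801 over complete models, and the difference in its most used 3′ end turned from -0.23 to 0.10 points over all models except genomic. None of these was called. The Jph2 log2 ratio of -1.53 was not called with no read filter (adjusted p = 0.0705) and could not be tested at 50 reads or over complete models. With TMM scaling and DESeq2 size factors its adjusted p was 0.0296 and 0.0258. The isoform test called 4 genes, and 14 over annotated models only. The 3′ end test called 32, and 60 with suffix models or 80 over all models except genomic. The mean SERCA2a share moved from 0% to 9.09% with incomplete models. The low reads of Ryr1, Stim1, Casq2 and Atp2a2 limit what their levels and forms can show.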
